A study of Mus musculus with 4 samples.

Results

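Sodium, calcium, chloride and TRP channels let ions through the membranes of excitable and non-excitable cells. The genes described here mostly encode pore-forming and accessory subunits of these channels. They are 87 of the 22608 genes in the deposited count table, taken by symbol: names that begin with Scn, Cacn, Hcn, Trpc, Trpm, Trpv, Clcn, Ano or Ryr and go on with a number (or, for Cacn, a subunit letter), together with Itpr1 and Itpr3. Not every gene of these families is included.

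The libraries came from mouse neural stem cells (NSCs) of the cerebral cortex of embryonic CD-1 mice, a purchased culture. Both groups were grown with EGF and FGF at 20 ng/ml each, given a short hairpin RNA by lentivirus, put under puromycin selection and then driven toward oligodendrocyte precursor cells (OPCs) for 3 days with CNTF at 20 ng/ml and T3 at 40 ng/ml. In the knockdown group (2 libraries) the hairpin was aimed at lnc-OPC, a long non-coding RNA. In the control group (2 libraries) it was aimed at luciferase, which mouse cells do not have. The labels call the repeats biological replicates but do not say whether they came from separate cultures, so p-values measure the spread between these libraries only. Both knockdown libraries are named for 1 hairpin, sh-lnc-OPC2, shown here because it is what sets these libraries apart from the controls. Loss of lnc-OPC and other effects of this hairpin therefore cannot be told apart here. The capitals mark bases 14 to 20 of its 21-base target, which pair with guide bases 2 to 8. No transcript of GENCODE M21 held this target exactly, so no position is given for it.
sh-lnc-OPC2 target: gaacgtcactaacCTTCTGTt

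The count table had 0 rows under the name lnc-OPC and 0 under the gene symbol 5330416C01Rik, so depletion of the target could not be checked from these counts. The reads assigned to genes numbered 49663413 and 50098577 in the knockdown libraries and 49584378 and 46144779 in the control libraries. Levels are given as CPM, read counts scaled in the usual way to each library's TMM-adjusted size. Of the oligodendrocyte lineage markers, 15 of 16 were lower in the knockdown by edgeR, and their summed level was 2333 to 2432 CPM in knockdown and 3667 to 3786 CPM in control libraries. Astrocyte markers summed to 7442 to 7607 CPM in knockdown and 4606 to 4684 CPM in control, with 6 of 9 tested markers higher and 1 lower. Neuron markers (11 in the table) summed to 269.1 to 271.3 CPM in knockdown and 299.4 to 315.8 CPM in control, with 3 of 9 higher and 3 lower. Rbfox3, Stmn2 and Syt1 were called higher and Dcx, Elavl3 and Syp lower, so this sum does not stand for the neuron list. Vessel markers summed to 389.0 to 391.4 CPM in knockdown and 755.2 to 762.9 CPM in control. Of 5 tested, 4 were lower, and Cspg4, which is also in the oligodendrocyte lineage list, was not called. Most of the sum was Acta2 (133 and 135 CPM in knockdown, 357 and 336 CPM in control) and Notch3 (178 and 175 CPM, 280 and 298 CPM). The endothelial marker Cldn5 had 0 counts in every library. Pecam1, Tek and Rgs5 had at most 6 in a library, so the sum does not speak for these markers. Microglia markers summed to 1.61 to 1.72 CPM in knockdown and 1.22 to 1.91 CPM in control, and Cx3cr1 and Tyrobp had 0 counts in every library. Neural stem cell markers, those of the starting cells, summed to 16030 to 16360 CPM in knockdown and 13360 to 13520 CPM in control, with 3 of 8 higher and 3 lower. Most of that sum was Vim, at 11571 and 12001 CPM in knockdown and 8597 and 8638 CPM in control. Vim, Sox2 and Prom1 were called higher and Nes, Hes1 and Hes5 lower, so the sum does not stand for the list. Over all genes tested, 23.5% were called higher and 23.3% lower. Marker levels of several cell types thus moved together with the groups, and their part in the channel results was not tested. In RNA from whole cultures, fewer cells of a type and less RNA per cell cannot be told apart.

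Voltage-gated channels open when the membrane depolarizes. In sodium and calcium channels a single large alpha subunit forms the pore, while beta, alpha2delta and some gamma subunits set how much channel reaches the surface and how it gates. Other gamma proteins, known as TARPs, accompany AMPA-type glutamate receptors instead. OPCs are known for carrying voltage-gated sodium and calcium channels together with AMPA receptors, whereas astrocytes signal largely through calcium released from internal stores by inositol trisphosphate receptors. TRP channels pass cations, CLC proteins and anoctamins move chloride or, in some members, protons or lipids, and HCN channels open on hyperpolarization.

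At a mean level of at least 1 CPM, the largest changes were increases of Cacna2d3 and Cacng5, accessory subunit genes, and a decrease of Itpr3, a calcium release channel gene. Most other called changes were under 1.5-fold. Of the 87 genes, 64 passed the filter on low counts and were tested, and 33 of these passed edgeR's quasi-likelihood test (adjusted p under 0.05), 22 higher and 11 lower in the knockdown. Over all 14090 genes tested, 46.7% were called, 23.5% higher and 23.3% lower, so the called share of the channel genes, 51.6%, was near that of genes at large. By the stricter rule of a called change over 2-fold, 2 channel genes were higher and 3 lower, where 1.56% of all tested genes were called higher and 2.26% lower. The median log2 change was 0.03 over the 64 channel genes and 0.002 over all genes tested. The 2 groups did not overlap for 44 of the 64 channel genes, against 72.6% of all genes tested. With DESeq2 in place of edgeR, 14 channel genes were called higher and 7 lower. Over all genes, DESeq2 called 5096 of 14095 tested, where edgeR called 6585 of 14090.

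**Figure D1:**
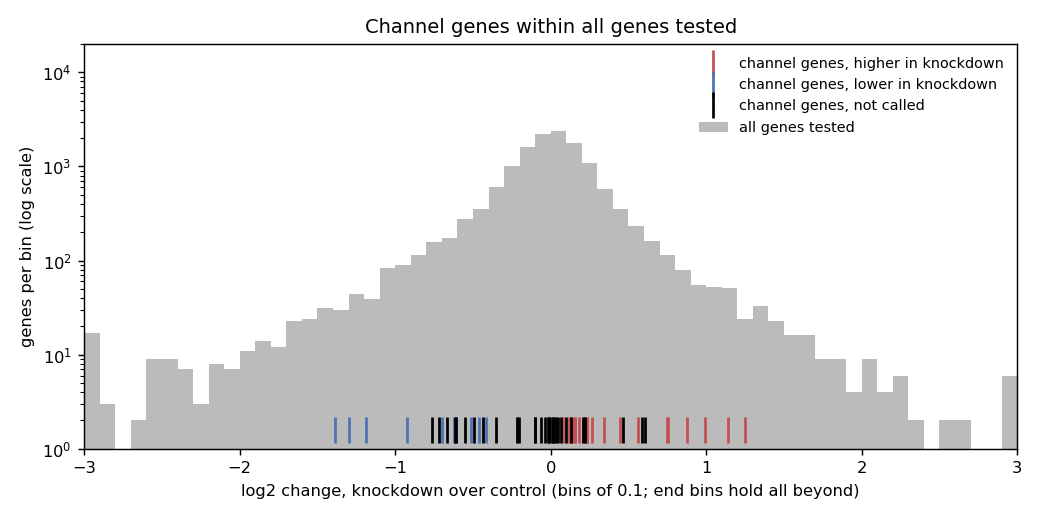
Number of genes in each bin of log2 change, knockdown over control, for all 14090 genes tested (grey bars, log scale), with the 64 tested channel genes as vertical ticks coloured by their edgeR call. The channel genes run from -1.39 (Scn9a) to 1.25 (Cacna2d3). These ends fall in sparse bins of 30 and 24 genes, against 2404 in the bin starting at 0.

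Of the 5 genes called over 2-fold, Cacna2d3, Cacng5 and Itpr3 averaged at least 1 CPM. Their promoters are shown so that the sequence beside the largest changes can be read. Each run is the 250 bases before the annotated start in RefSeq (GRCm38.p6), 5′ to 3′ on the gene's strand. For Cacng5, which has 2 annotated starts, the outer one was used. Of the 87 channel genes, 69 had a promoter entry. The capitals mark matches on either strand to the E-box CAGCTG, the second E-box form CAGATG, the SOX motif ACAAT, the nuclear receptor half-site AGGTCA, the GC box GGGCGG and the STAT motif TTCNNNGAA.
Cacna2d3 (GRCm38.p6, chr14:29721865-29722114, minus strand): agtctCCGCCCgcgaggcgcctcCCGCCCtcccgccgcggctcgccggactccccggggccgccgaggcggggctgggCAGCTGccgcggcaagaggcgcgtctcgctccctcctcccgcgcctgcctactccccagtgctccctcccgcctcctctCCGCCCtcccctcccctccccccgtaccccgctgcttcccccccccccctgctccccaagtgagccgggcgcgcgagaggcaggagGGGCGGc
Cacng5 (GRCm38.p6, chr11:107915056-107915305, minus strand): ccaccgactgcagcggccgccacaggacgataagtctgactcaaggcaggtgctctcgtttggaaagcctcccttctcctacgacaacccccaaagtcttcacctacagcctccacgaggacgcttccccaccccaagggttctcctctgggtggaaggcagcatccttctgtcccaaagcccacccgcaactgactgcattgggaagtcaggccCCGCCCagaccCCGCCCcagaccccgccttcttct
Itpr3 (GRCm38.p6, chr17:27057054-27057303, plus strand): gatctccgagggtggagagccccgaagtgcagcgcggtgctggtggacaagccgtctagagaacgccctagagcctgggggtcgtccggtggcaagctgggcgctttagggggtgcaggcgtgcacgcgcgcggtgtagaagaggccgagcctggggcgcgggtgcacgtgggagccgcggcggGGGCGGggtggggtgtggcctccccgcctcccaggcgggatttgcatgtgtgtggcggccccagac

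GC boxes accounted for nearly all of these capitals. The Cacna2d3 promoter, with a GC content of 80%, held 4 GC boxes and the E-box CAGCTG once, the Cacng5 promoter (62%) held 2 GC boxes, and the Itpr3 promoter (72%) held 1. Among 32841 promoter windows of the same length, 32.7% held a GC box and 13% the E-box CAGCTG. The SOX, nuclear receptor and STAT motifs, present in 27.7%, 14% and 7.02% of all windows, were found in none of the 3, nor was the second E-box form (14.4%). These are matches to letters and say nothing of binding.

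Among sodium channel alpha subunits, Scn8a and Scn2a1 rose and Scn3a fell. Scn8a, the main sodium channel of mature nodes of Ranvier, had 65.9 and 65.7 CPM in the knockdown libraries, against 50.1 and 53.6 CPM in the control libraries, which is a log2 change of 0.34 with SE 0.05 (edgeR adjusted p = 1.24e-07). Scn3a, a form prominent in the embryonic brain, had 14.6 and 16.2 CPM in the knockdown libraries, against 23.7 and 26.3 CPM in the control libraries, which is a log2 change of -0.70 with SE 0.07 (edgeR adjusted p = 1.84e-09). Scn2a1, the channel of early axon initial segments, had 14.9 and 13.9 CPM in the knockdown libraries, against 12.4 and 11.6 CPM in the control libraries, which is a log2 change of 0.27 with SE 0.09 (edgeR adjusted p = 0.0122). The groups did not overlap for any of these, as for 72.6% of all genes tested. The call of Scn2a1 was lost with DESeq2 and without control replicate 2 or knockdown replicate 1.

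Scn7a, a glial sodium sensor that is not opened by voltage, and Scn9a, best known from sensory neurons, were low. Scn7a had 2.12 and 1.33 CPM in the knockdown libraries, against 0.737 and 1.01 CPM in the control libraries, which is a log2 change of 0.99 with SE 0.30 (edgeR adjusted p = 0.00778). Leaving out control replicate 1 gave it an edgeR adjusted p of 0.145, and leaving out knockdown replicate 1 an adjusted p of 0.191. Scn9a had 15 and 10 reads in the knockdown libraries, against 40 and 25 in the control libraries, which is a log2 change of -1.39 with SE 0.47 (edgeR adjusted p = 0.0157). DESeq2 did not call it, nor did edgeR without either control replicate or without knockdown replicate 2. Scn1a (0.897 and 0.505 CPM with knockdown and 1.21 and 1.01 CPM in control) was not called, although both knockdown libraries were below both controls.

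The beta subunits, which shape gating and also act in cell adhesion, showed small differences. Scn3b had 16.1 and 18.7 CPM in the knockdown libraries, against 14.8 and 15.3 CPM in the control libraries (log2 change 0.21, SE 0.08, edgeR adjusted p = 0.0353). It was called by edgeR but not by DESeq2, and leaving out 1 library removed the call in 3 of 4 cases. Scn2b was not called, at 26 and 28 reads in knockdown and 23 and 12 in control.

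Calcium channel alpha1 subunits moved in both directions, with the R-type gene higher and an L-type and a T-type gene lower. Cacna1e, which forms R-type channels, had 7.32 and 6.29 CPM in the knockdown libraries, against 3.50 and 3.92 CPM in the control libraries, which is a log2 change of 0.88 with SE 0.14 (edgeR adjusted p = 4.99e-06). Cacna1c, the main L-type pore of brain and heart, had 34.7 and 36.6 CPM in the knockdown libraries, against 49.0 and 49.4 CPM in the control libraries, which is a log2 change of -0.46 with SE 0.05 (edgeR adjusted p = 3.67e-09). Cacna1g, a T-type gene whose channel opens near resting potential, had 2.39 and 2.37 CPM in the knockdown libraries, against 4.58 and 4.45 CPM in the control libraries, which is a log2 change of -0.93 with SE 0.17 (edgeR adjusted p = 2.84e-05). In all 3 the knockdown and control libraries lay apart, as in 72.6% of all genes tested, and each kept its call under every alternative run.

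The most abundant alpha1 gene did not pass the test. Cacna1a, the P/Q-type pore, had 67.8 and 65.2 CPM in the knockdown libraries, against 63.9 and 63.1 CPM in the control libraries (log2 change 0.07, SE 0.04, edgeR adjusted p = 0.209). The remaining T-type genes were not called, with Cacna1h at 27.1 and 28.0 CPM with knockdown and 25.2 and 28.3 CPM in control (log2 change 0.05, SE 0.06) and Cacna1i at no more than 14 reads in a library. The N-type gene Cacna1b and the second L-type gene Cacna1d also missed the call, with log2 changes of -0.06 (SE 0.09) and -0.10 (SE 0.09). Cacna1s, the skeletal muscle form, was called lower at 19 and 19 reads in knockdown, against 56 and 30 in control (log2 change -1.19, SE 0.41, edgeR adjusted p = 0.0177). That call was lost with DESeq2, without control replicate 1 and without either knockdown replicate, and 18.9% of its annotated exon bases lie in exons of another gene.

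The products of the 4 alpha2delta genes carry the channel to the surface and in some forms bind gabapentin. Of these genes 3 were called higher, where 23.5% of all genes tested were called higher. Cacna2d3 had 79.2 and 83.2 CPM in the knockdown libraries, against 31.9 and 36.5 CPM in the control libraries. That is a 2.38-fold difference, which is a log2 change of 1.25 with SE 0.05 (edgeR adjusted p = 3.07e-18), with replicates far closer to each other than to the other group. Cacna2d1 rose 1.18-fold, with 66.4 and 62.9 CPM in the knockdown libraries, against 55.5 and 54.4 CPM in the control libraries (log2 change 0.23, SE 0.04, edgeR adjusted p = 5.63e-05). Cacna2d2 was near 2 to 3 CPM, with 2.81 and 3.07 CPM in the knockdown libraries, against 1.83 and 2.16 CPM in the control libraries (log2 change 0.56, SE 0.20, edgeR adjusted p = 0.0233), and its call was lost with DESeq2, without control replicate 1 and without knockdown replicate 2. Cacna2d4, at 14 to 28 reads in every library, was not called.

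**Figure D2:**
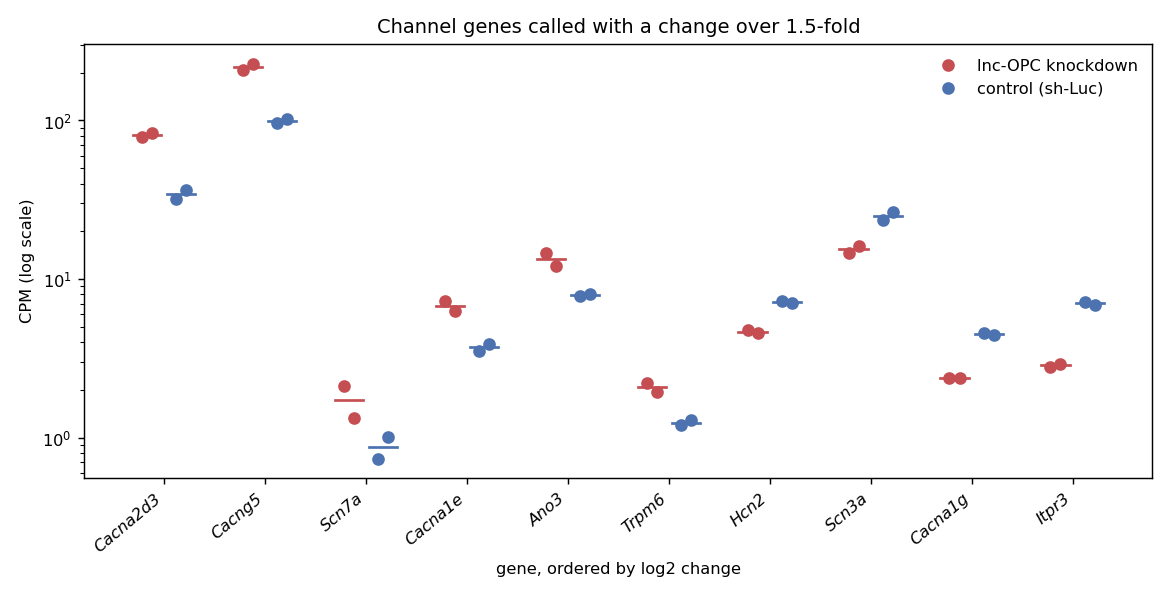
CPM (log scale) of 10 channel genes called with a change over 1.5-fold and a mean of at least 1 CPM, with 1 point per library (knockdown left, control right) and a line at each group mean. In every gene both knockdown libraries lie on the same side of both controls, as in 72.6% of all genes tested. These genes were picked because they were called, which favours such separation. Scn7a has the widest spread within a group.

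The cytoplasmic beta subunits, which chaperone the pore to the surface, differed little except for Cacnb4. Cacnb4 had 20.8 and 19.9 CPM in the knockdown libraries, against 14.3 and 15.6 CPM in the control libraries, which is a log2 change of 0.45 with SE 0.08 (edgeR adjusted p = 8.71e-06). An annotated neighbouring transcript covers 13.4% of its exon bases, and without strand information their reads cannot be told apart. Cacnb3, the most abundant beta gene, had 109.9 and 99.2 CPM in the knockdown libraries, against 93.6 and 99.2 CPM in the control libraries (log2 change 0.12, SE 0.04, edgeR adjusted p = 0.0254). Its groups overlapped, and the call did not hold with DESeq2, without either control replicate or without knockdown replicate 1. Cacnb1 and Cacnb2 had log2 changes of 0.01 and 0.02 (SE 0.08 and 0.10).

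Among the gamma genes, both class II TARP genes rose, and 1 of the 2 class I genes tested fell. Over all genes tested, 23.5% were called higher and 23.3% lower, and a difference between the classes was not tested. Cacng5, a class II TARP gene of glia and some neurons, had 208 and 228 CPM in the knockdown libraries, against 95.9 and 102 CPM in the control libraries. This was a 2.20-fold increase, which is a log2 change of 1.14 with SE 0.04 (edgeR adjusted p = 6.74e-16), and the highest CPM among the 11 channel genes that changed over 1.5-fold at a mean of at least 1 CPM. Cacng7, the other class II TARP gene, rose 1.11-fold, with 87.0 and 86.8 CPM in the knockdown libraries, against 77.9 and 78.1 CPM in the control libraries (log2 change 0.16, SE 0.04, edgeR adjusted p = 0.00102). Cacng4, a class I TARP gene known from OPCs, fell 1.33-fold, with 50.9 and 49.8 CPM in the knockdown libraries, against 66.7 and 67.4 CPM in the control libraries (log2 change -0.41, SE 0.04, edgeR adjusted p = 1.7e-09). The groups were apart in all 3, as in 72.6% of all genes tested. Cacng8, another class I gene, had 4.67 and 4.00 CPM with knockdown and 4.86 and 3.77 CPM in control and was not called (log2 change 0.0049, SE 0.16). Cacng2, the founding TARP gene stargazin, had at most 2 reads in a library.

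AMPA receptor genes, the partners of TARPs, also moved in both directions. In the list of receptor subunits and other auxiliary proteins, 3 of 7 tested genes rose and 4 fell, against 23.5% higher and 23.3% lower over all genes tested. Gria1 had 134 and 144 CPM in the knockdown libraries, against 58.1 and 53.3 CPM in the control libraries, a 2.49-fold increase (log2 change 1.32, SE 0.04, edgeR adjusted p = 5.41e-21). Cnih3, an auxiliary subunit gene, had 1.73 and 2.04 CPM in the knockdown libraries, against 4.26 and 3.79 CPM in the control libraries, a 2.13-fold decrease (log2 change -1.09, SE 0.19, edgeR adjusted p = 1.17e-05). Gria4 and Shisa9 rose 1.22-fold and 1.46-fold, and Gria2, Gria3 and Cnih2 fell 1.11-fold, 1.14-fold and 1.3-fold (edgeR adjusted p of 0.000703 or less each).

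To compare members with each other, CPM was divided by the length of the annotated exons (GENCODE M21, GRCm38, not the annotation used for counting), and each gene was expressed as a share of the summed CPM per kb of its family's tested members. In the alpha2delta family, Cacna2d3 made up 70.4% and 72.3% of the family level in the knockdown libraries, against 53.5% and 57.2% in the control libraries. Cacna2d1 made up most of the rest, with 27.7% and 25.7% of the family level in the knockdown libraries, against 43.7% and 40.1% in the control libraries. Cacng5 took 49.0% and 51.7% of the family level in the knockdown libraries, against 30.6% and 32.1% in the control libraries. By this measure it stood above Cacng7 with knockdown and below it in control. That order depends on the exon lengths. In CPM, Cacng5 was above Cacng7 in every library (95.9 and 102 against 77.9 and 78.1 CPM in control). The share of Cacng7 was 35.6% and 34.1% of the family level in the knockdown libraries, against 43.0% and 42.4% in the control libraries. For Cacng4 the share was 13.2% and 12.4% of the family level in the knockdown libraries, against 23.3% and 23.1% in the control libraries.

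In the sodium channel alpha family, Scn8a was first in every library, with 58.6% and 59.0% of the family level in the knockdown libraries, against 47.8% and 48.9% in the control libraries. Scn3a held 16.6% and 18.5% of the family level in the knockdown libraries, against 28.8% and 30.5% in the control libraries, and in knockdown replicate 1 it stood below Scn2a1, which had 18.1% there. Scn3a and Scn2a1 were close to each other in both knockdown libraries and well apart in both controls. In the alpha1 family Cacna1a was first in every library, with 49.2% and 47.6% of the family level in the knockdown libraries, against 45.3% and 43.8% in the control libraries. Cacna1c made up 13.1% and 13.9% of the family level in the knockdown libraries, against 18.1% and 17.9% in the control libraries. No test was run on these shares, which rest on 2 libraries a group.

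**Figure D3:**
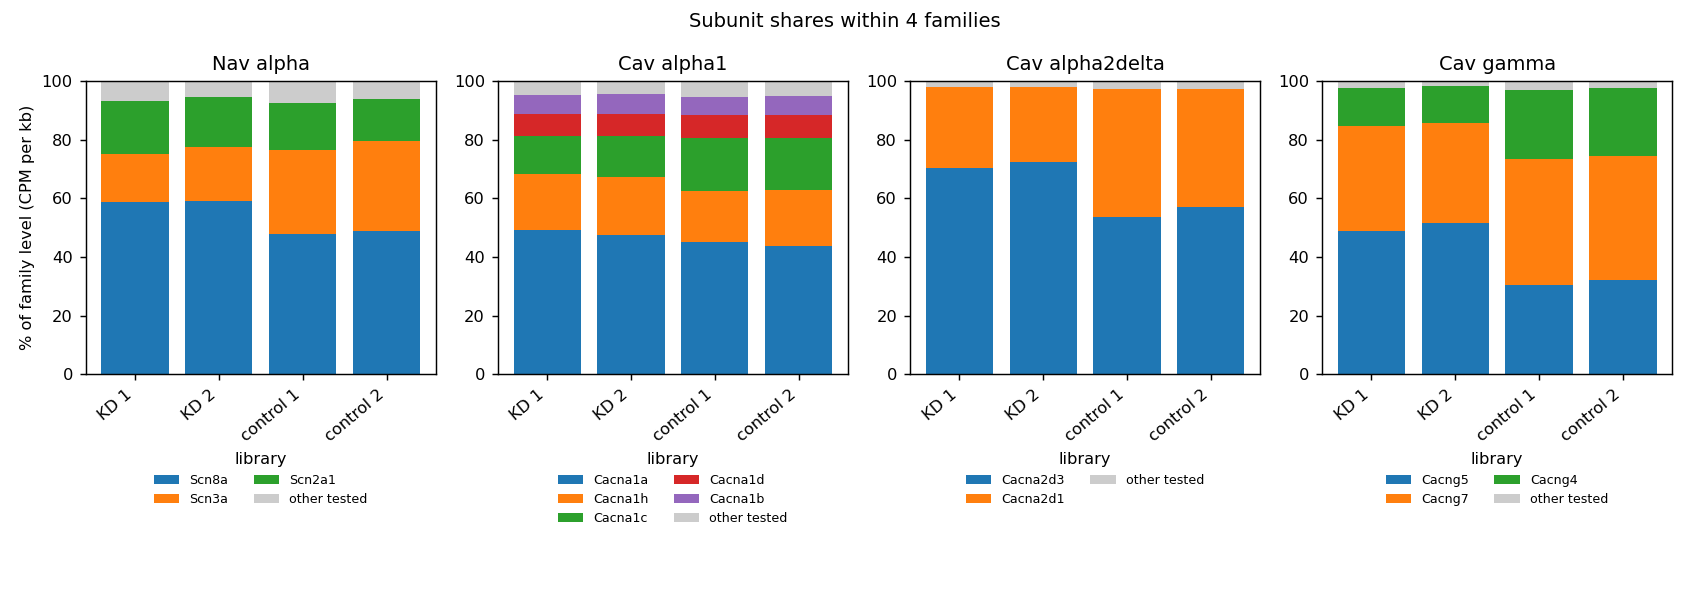
Share of each family's summed level (CPM per kb of annotated exon, in %) taken by its members, 1 stacked bar per library with knockdown (KD) left of control, for the sodium channel alpha, calcium channel alpha1, alpha2delta and gamma families. Members under 5% in every library are pooled in grey, and Cacna2d3 and Cacng5 take larger shares in both knockdown libraries.

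All 3 tested HCN genes, pacemaker channels opened by hyperpolarization and cyclic nucleotides, had both knockdown values under both control values, and 1 passed the test. Groups lay apart in this way, in either direction, in 72.6% of all genes tested, and 46.7% were called. Hcn2 had 4.75 and 4.55 CPM in the knockdown libraries, against 7.29 and 7.04 CPM in the control libraries, which is a log2 change of -0.62 with SE 0.13 (edgeR adjusted p = 0.000156). Hcn3 had 5.34 and 5.34 CPM in the knockdown libraries, against 5.97 and 6.36 CPM in the control libraries (log2 change -0.21, SE 0.13, edgeR adjusted p = 0.203), and 17.8% of its exon bases lie in exons of Pklr. Hcn4 was near 1 CPM with 0.857 and 0.789 CPM with knockdown and 1.27 and 0.942 CPM in control and was not called.

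Among TRPC genes, which encode cation channels downstream of receptor signalling through phospholipase C, Trpc4 fell. Trpc7 had 1.14 and 1.09 CPM with knockdown and 1.18 and 1.01 CPM in control and was not called, and Trpc6 had 0 reads. Trpc4 had 2.71 and 3.13 CPM in the knockdown libraries, against 4.06 and 4.28 CPM in the control libraries (log2 change -0.51, SE 0.17, edgeR adjusted p = 0.0119), a call lost with DESeq2, without either control replicate and without knockdown replicate 1. Its relative Trpc5 stayed at 18 reads or fewer in a library. Trpc1 (10.8 and 12.7 CPM with knockdown and 13.6 and 11.7 CPM in control) was not called. Trpc2, a pheromone channel gene of the mouse vomeronasal organ, was listed at 12.01 and 11.1 CPM with knockdown and 10.5 and 10.7 CPM in control, but 97.8% of its exon bases are shared with Xndc1 and Xntrpc, so these reads cannot be assigned to it. Trpc4ap matched the symbol rule but encodes an adaptor and not a channel. It was the most abundant gene of the list, with 257 and 257 CPM in the knockdown libraries, against 234 and 238 CPM in the control libraries (log2 change 0.12, SE 0.03, edgeR adjusted p = 0.00088).

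TRPM genes were dominated by Trpm7, a channel fused to a kinase that passes magnesium and calcium. It had 144 and 141 CPM in the knockdown libraries, against 121 and 121 CPM in the control libraries, which is a log2 change of 0.23 with SE 0.03 (edgeR adjusted p = 4.06e-07). Trpm6, its close relative in magnesium uptake, also rose 1.68-fold, at a far lower level, with 2.22 and 1.94 CPM in the knockdown libraries, against 1.19 and 1.28 CPM in the control libraries (log2 change 0.75, SE 0.25, edgeR adjusted p = 0.0132). DESeq2 gave it an adjusted p of 0.0625, and leaving out 1 library gave edgeR adjusted p-values of 0.0174 (without knockdown replicate 2) to 0.09 (without control replicate 1). Trpm4, a calcium-activated channel for monovalent ions, had 6.32 and 5.90 CPM with knockdown and 5.99 and 5.41 CPM in control and was not called. Trpm1, Trpm2 and Trpm3 had 6 to 18 reads in each library and none was called. In the TRPV family only Trpv4, an osmosensitive channel, passed the filter, at 14 and 26 reads in knockdown and 38 and 27 in control (log2 change -0.72, SE 0.43), and it was not called.

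The CLC genes that work as chloride and proton exchangers of endosomes and lysosomes were well expressed and changed by less than 1.2-fold. Clcn3 had 248 and 242 CPM in the knockdown libraries, against 225 and 216 CPM in the control libraries (log2 change 0.15, SE 0.03, edgeR adjusted p = 9.74e-05). Clcn7, the lysosomal exchanger, had 52.2 and 53.9 CPM in the knockdown libraries, against 48.1 and 47.9 CPM in the control libraries (log2 change 0.14, SE 0.05, edgeR adjusted p = 0.0125). Clcn5, an endosomal exchanger, was called lower, with 15.7 and 14.5 CPM in the knockdown libraries, against 18.5 and 16.7 CPM in the control libraries (log2 change -0.22, SE 0.08, edgeR adjusted p = 0.0239). The calls of Clcn5 and Clcn7 were lost with DESeq2, without control replicate 1 and without knockdown replicate 2, and that of Clcn7 also without control replicate 2. Clcn4-2, an older symbol of Clcn4, had 128 and 125 CPM in the knockdown libraries, against 119.6 and 119 CPM in the control libraries, at the threshold (log2 change 0.08, SE 0.03, edgeR adjusted p = 0.0491) and was not called under any alternative except the replicate block. Clcn6 had 74.8 and 72.8 CPM with knockdown and 74.7 and 76.9 CPM in control and Clcn1, the muscle channel, had 18 to 49 reads in each library, and neither was called.

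Anoctamins include calcium-activated chloride channels and calcium-activated lipid scramblases, and here the abundant members were of the scramblase and intracellular kind. Ano3, a brain anoctamin, had 14.6 and 12.1 CPM in the knockdown libraries, against 7.79 and 8.00 CPM in the control libraries, which is a log2 change of 0.76 with SE 0.10 (edgeR adjusted p = 1.98e-07). Ano6, the scramblase that exposes phosphatidylserine, had 173 and 176 CPM in the knockdown libraries, against 163 and 155 CPM in the control libraries (log2 change 0.13, SE 0.03, edgeR adjusted p = 0.00121), a call lost without control replicate 2 (edgeR adjusted p = 0.0589). Ano10 had 75.01 and 79.6 CPM in the knockdown libraries, against 66.2 and 65.9 CPM in the control libraries (log2 change 0.23, SE 0.04, edgeR adjusted p = 3.08e-05). Ano8 had 53.4 and 50.1 CPM with knockdown and 51.4 and 52.9 CPM in control and was not called. Ano4 just missed the threshold, with 1.02 and 1.40 CPM with knockdown and 1.81 and 1.88 CPM in control (log2 change -0.61, SE 0.26, edgeR adjusted p = 0.0554). The chloride channel genes Ano1 and Ano2 were barely detected, with 1 and 6 reads of Ano1 in knockdown and 0 in both controls, and no more than 1 read of Ano2 in any library.

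Of the 5 genes of endoplasmic reticulum calcium release channels described here, 1 was called, where 46.7% of all genes tested were called. Itpr3 had 2.79 and 2.91 CPM in the knockdown libraries, against 7.21 and 6.85 CPM in the control libraries. This was a 2.46-fold decrease, which is a log2 change of -1.30 with SE 0.15 (edgeR adjusted p = 5.35e-09). The groups did not overlap, as for 72.6% of all genes tested. Itpr1, the most abundant release channel of the brain, had 97.7 and 99.7 CPM in the knockdown libraries, against 101 and 97.4 CPM in the control libraries (log2 change -0.01, SE 0.04, edgeR adjusted p = 0.848). Its level per kb of exon was 10.04 CPM per kb on average over the 4 libraries, against 0.550 for Itpr3, and of the summed level of these 2 genes alone Itpr3 made up 3.04% and 3.11% in the knockdown libraries, against 7.24% and 7.17% in the control libraries. Ryr3, the main ryanodine receptor gene here, had 43.1 and 40.5 CPM in the knockdown libraries, against 42.5 and 41.9 CPM in the control libraries (log2 change -0.02, SE 0.05, edgeR adjusted p = 0.822). Ryr2 had 0.734 and 0.687 CPM with knockdown and 0.697 and 0.963 CPM in control and Ryr1 at most 14 reads in a library, and neither was called.

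**Figure D4:**
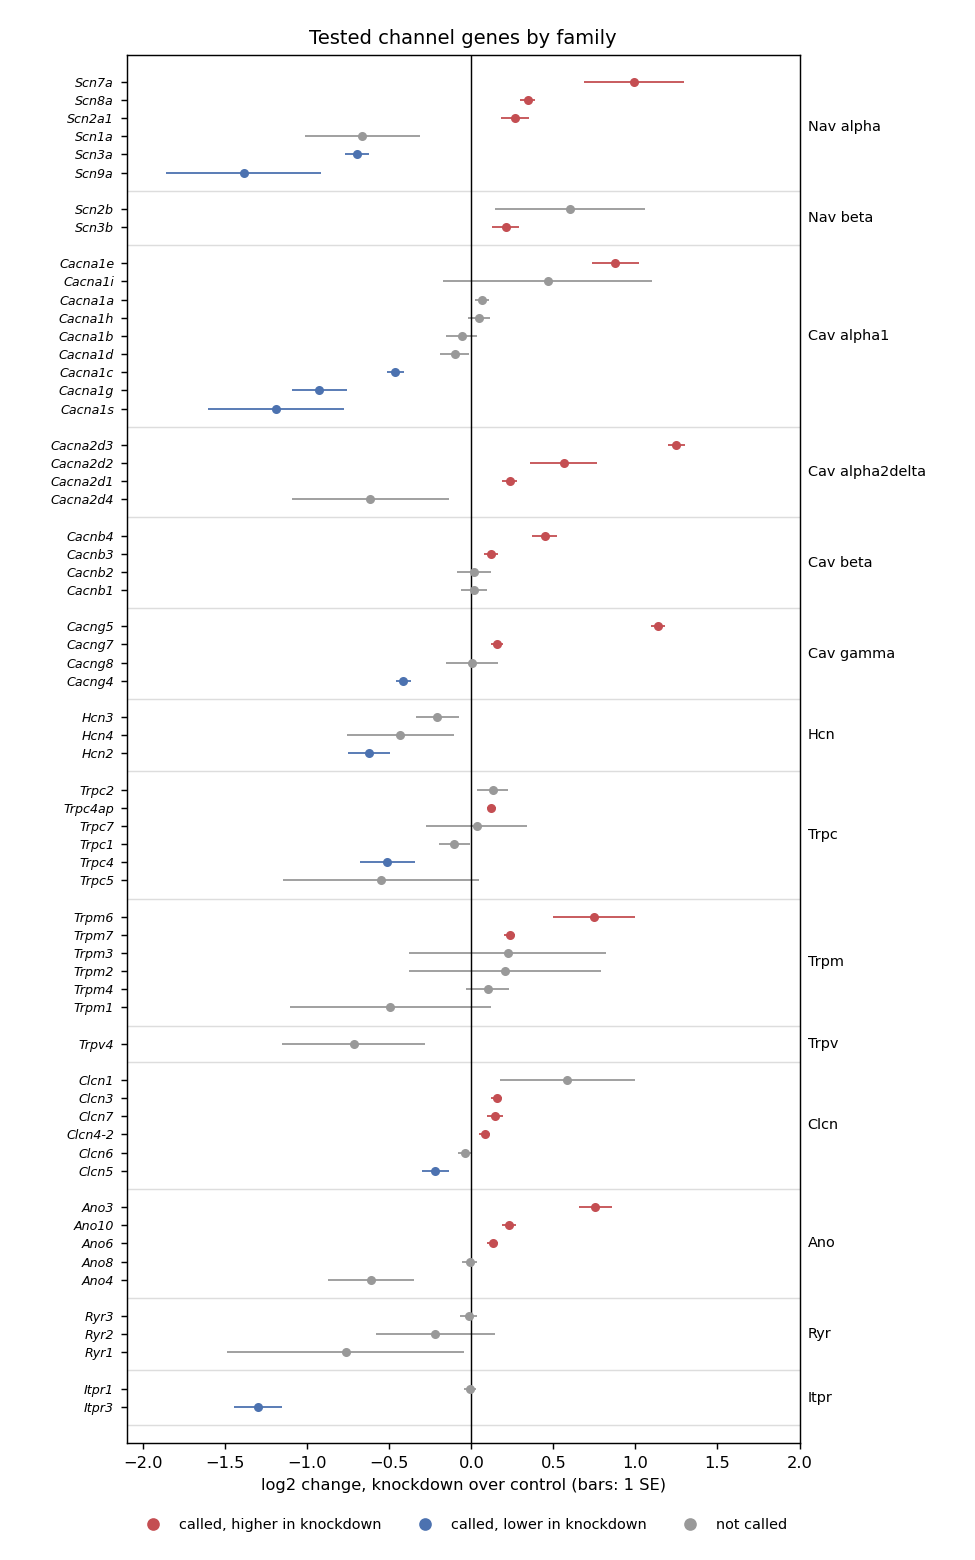
Log2 change (knockdown over control) of 61 tested channel genes, grouped by family, with bars of 1 standard error. Genes called by edgeR at an adjusted p under 0.05 are coloured (21 higher, 10 lower) and 30 others are grey, and wide bars mark genes with few reads.

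The 23 genes that did not pass the filter were at or near zero in both groups. Scn10a, Scn4b, Cacna1f, Cacng3, Trpc6, Trpm8, Trpv3, Trpv5, Ano5 and Ano9 had 0 reads in all 4 libraries, which allows a level of up to 0.0597 to 0.0642 CPM per library (3 counts, counting error only). The other 13, among them Scn4a, Scn11a, Cacng1, Cacng2, Cacng6, Trpm5, Trpv1, Trpv2, Trpv6, Ano1, Ano2 and Ano7, had 0 to 13 reads in a library. The 13 reads belonged to Trpv2 in knockdown replicate 1, which had 2 in knockdown replicate 2 and 2 and 0 in the controls. These genes include forms typical of sensory neurons (Scn10a, Scn11a, Trpv1, Trpm8), muscle (Scn4a, Cacng1) and retina (Cacna1f).

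Genes that work with these channels were read from lists of partners. Among sodium channel partners and sodium pumps, 7 of 16 tested rose and 4 fell, where 23.5% of all genes tested were called higher and 23.3% lower. Nrcam, an adhesion molecule of nodes and axon initial segments, had 361 and 365 CPM in the knockdown libraries, against 184 and 179 CPM in the control libraries, a 2.00-fold increase (log2 change 1.00, SE 0.03, edgeR adjusted p = 8.13e-24). Ank2 and the pump subunit Atp1b2, which is typical of astrocytes, rose 1.43-fold and 1.33-fold, and Nfasc and Ank3, which anchor sodium channels, fell 1.35-fold and 1.43-fold (edgeR adjusted p of 0.000145 or less each). Among calcium entry, pump and exchange genes, 4 of 14 tested rose and 6 fell (all genes tested: 23.5% higher, 23.3% lower). Atp2b2, a plasma membrane calcium pump, had 2.26 and 2.12 CPM in the knockdown libraries, against 1.10 and 1.13 CPM in the control libraries (log2 change 0.98, SE 0.25, edgeR adjusted p = 0.00158). Slc8a1, a sodium and calcium exchanger, and Stim1, the sensor of store depletion, rose 1.42-fold and 1.36-fold, while the store pump Atp2a2 fell 1.17-fold (edgeR adjusted p of 2.85e-08 or less each).

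Among chloride partners and other chloride routes, 5 of 17 tested rose and 7 fell (all genes tested: 23.5% higher, 23.3% lower). Mlc1, an astrocyte membrane protein, had 1737 and 1778 CPM in the knockdown libraries, against 1106 and 1119 CPM in the control libraries (log2 change 0.66, SE 0.03, edgeR adjusted p = 6.13e-20). Its partner Hepacam and the volume-regulated channel gene Lrrc8a rose 1.44-fold and 1.49-fold (edgeR adjusted p of 4.01e-13 or less each). Slc12a5, the chloride exporter of mature neurons, had 6.38 and 5.24 CPM in the knockdown libraries, against 9.70 and 9.84 CPM in the control libraries (log2 change -0.75, SE 0.12, edgeR adjusted p = 2.33e-06). Of the other TRP superfamily channels, 1 of 4 tested rose, the lysosomal channel gene Mcoln1, by 1.10-fold (edgeR adjusted p = 0.041), and 0 fell.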

How the data were processed

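Poly(A) RNA-seq profiles of 2 knockdown and 2 control samples were analysed from the deposited table of whole-number read counts per gene, deposited by the authors without normalization. HTSeq 0.6.1, SAMtools 0.1.18, Bowtie 0.12.7, TopHat 1.3.3, DESeq and Cufflinks are the tools listed in the submitters' processing notes, with mm9 as the build. The library kit does not mark strand; no strand setting or annotation release for the counting was found, both being not given in the sources used here. Left out of library sizes and tests were reads outside genes (20.1% to 22.2% of listed reads), with several alignments (10.7% to 11.2%) or fitting several genes (0.427% to 0.434%). The deposited tables of the authors' own fold changes, p-values and gene ontology terms were not used, and 0 columns were left unassigned.

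The 2 groups were compared, over all genes, with edgeR 4.0.16 in R 4.3.3: filterByExpr (minimum count 10, minimum total 15), TMM scaling, robust quasi-likelihood fit and Benjamini-Hochberg adjustment, with no covariate. Genes at an adjusted p under 0.05 were called. Standard errors are the log2 change divided by the square root of F. Channel genes named with a value in every library were those called with a change over 1.5-fold and a mean of at least 1 CPM, and the 2 most abundant tested genes of each family; the rest are given more briefly. Partner genes follow the first of these rules, and others were chosen after their values were seen. The gene members, lists and tests were chosen with earlier results of these data known. Some genes are counted but not named, or are not reported here. Alternatives were DESeq2 1.42.0, upper-quartile scaling, no filter on low counts, a replicate block and leaving out each library. The procedure was tested on simulated data. Older symbols were matched through RefSeq synonyms, and all 87 genes had an exon length.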

Additional observations from a re-analysis of the deposited data

How the results depend on the processing

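The labels give both groups the same replicate numbers, but nothing says that a number marks a shared culture, and the replicate 1 minus 2 differences of the groups correlated only at r = 0.0538 over 14090 genes, so the main comparison was unpaired. With the replicate number as a block, 22 channel genes were called higher, 12 lower and 5 over 2-fold, against 22, 11 and 5 without it. DESeq2 called 14 higher, 7 lower and 3 over 2-fold. Over all genes it called 5096 of 14095 tested, against 6585 of 14090 with edgeR. The fall in calls was thus not particular to channel genes, and its cause was not tested. Leaving out 1 library gave 14 to 18 higher, 7 to 10 lower and 3 to 5 over 2-fold, with the lowest counts without control replicate 1. A lone library in a group was then assumed to vary like the other group. Each fit without 1 library also called fewer genes over all genes tested, so these lower counts were not particular to channel genes either. Upper-quartile scaling and no filter on low counts each gave 21 higher, 11 lower and 5 over 2-fold. Of the 11 genes called with a change over 1.5-fold at a mean of at least 1 CPM, 9 kept their call and direction under every alternative, the exceptions being Scn7a and Trpm6. Scn9a and Cacna1s, called over 2-fold at a lower level, lost their calls under several. Channel genes rerun singly were all those called and the 2 most abundant of each family, and among these the sign changed in 4 that were not called, when 1 library was left out: Trpc1 (log2 change -0.2272 to 0.0101, with 0.008 without control replicate 1), Ryr2 (-0.4373 to 0.0282), Ryr3 (-0.062 to 0.0272) and Itpr1 (-0.038 to 0.0185, with 0.004 without knockdown replicate 1). Depth limits tested genes with at most 49 reads in every library, whose standard errors were 0.36 or more on the log2 scale.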
